A study of Mus musculus with 22 samples.

Results

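Chemokine genes of the CC and CXC families were followed in CD11b+ cells of the neonatal mouse brain. The set held 10 genes, Ccl2, Ccl3, Ccl4, Ccl7, Ccl9, Ccl12, Cxcl1, Cxcl2, Cxcl10 and Cxcl16, of 56691 genes in the deposited tables. They were chosen by name, as chemokines that microglia can make, and each was found by its symbol in both tables. Chemokines are small secreted proteins that guide cells along a gradient and act on G protein-coupled receptors of the target cell. Microglia, the resident macrophages of the brain, transcribe several of them soon after Toll-like receptor or cytokine signals, largely through NF-kB, and their transcripts are short-lived. Ccl2, Ccl7 and Ccl12 act on Ccr2 and draw monocytes. Ccl3 and Ccl4 draw macrophages and T cells, and Ccl3 and Ccl9 act on Ccr1. Cxcl1 and Cxcl2 act on Cxcr2 and draw neutrophils, Cxcl10 is induced by interferon and acts on Cxcr3, and Cxcl16 is made as a membrane-bound protein that acts on Cxcr6.

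The animals were wild-type mice of the outbred CF-1 strain, and total RNA was sequenced after CD11b+ cells of the whole brain had been enriched on magnetic beads. HIE animals, a model of neonatal hypoxic-ischemic encephalopathy, came from dams given LPS late in gestation and were exposed to a short hypoxia on P6. Other animals are labelled Control or Hypoxia, and the sources used here do not describe the hypoxia group further. There were 4 HIE and 4 control animals on P7 and 4 HIE, 4 control and 4 hypoxia animals on P14, 22 libraries from 20 animals, because 2 HIE animals on P14 had 2 libraries each, which were summed. The P7 controls carry the days 8, 9, 10 and 11 in their own labels, while the collection protocol names P7 for all samples, and they were taken as P7 here. All 4 HIE pups on P7 are labelled male, and the other groups hold 2 males and 2 females each. The word litter is used for animals with the same name prefix, which the labels do not define. A litter never spans treatments, so treatment and litter cannot be told apart. Names of the HIE pups on P7 start with N and those of the P7 controls with P6H, so these letters follow treatment there. On P14, HIE and control animals carry both P4H and P6H names, whereas hypoxia animals carry P6H names only. The labels do not say what these letters mean. The P7 and the P14 libraries came in separate tables, so day and table cannot be told apart either.

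The 10 genes sit in 3 clusters and 2 single positions of GRCm39. Ccl2 (chr11:81926397-81928279), Ccl7 (chr11:81936532-81938351) and Ccl12 (chr11:81992645-81994466) lie side by side on the plus strand, with 8252 and 54293 bases between them. Ccl9 (chr11:83463745-83473161) and Ccl3 (chr11:83538670-83540191) lie on the minus strand of the same chromosome, and Ccl4 (chr11:83553383-83555509) follows on the plus strand 13191 bases after Ccl3. Cxcl1 (chr5:91039094-91040974) and Cxcl2 (chr5:91051730-91053797) are neighbours on the plus strand, 10755 bases apart. Cxcl10 (chr5:92494497-92496748) and Cxcl16 (chr11:70344517-70352620) stand alone on the minus strand.

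Some members share their position with another gene on the opposite strand. Ccl3 lies wholly within the long non-coding RNA Gm53692, Cxcl10 lies wholly within Art3, and Cxcl16 overlaps Med11 over 3925 bases and Zmynd15 over 2362 bases. The libraries were made with a stranded kit, but whether strand was used in counting is not given in the sources used here. The count of Ccl3 was fractional in 22 libraries, that of Cxcl16 in 20, that of Cxcl10 in 18 and that of Cxcl2 in 5, which means that reads were divided between genes. Counts of the other 6 members were whole in all libraries. Beside Ccl3, Gm53692 held 2.15 to 16.8% of the sum of both genes over the 20 animals. The share of the overlapping gene was larger for Cxcl10 on P14, when Art3 (2.9 to 6.5 CPM) held 38.9 to 78.2% of the sum of both genes. On P7 Art3 held 17.1 to 73.3% in the controls and 8.74 to 14.0% in the HIE pups. These shares use all counts of the overlapping gene, also any from outside the member, and so do not measure the division itself. The gene Ccl9 overlaps the long non-coding RNA E230016K23Rik over 280 bases, which stayed under 2 CPM. All 10 members passed the filter on low counts in each of the 9 comparisons, and the lowest count of any member in any animal was 53, for Cxcl10.

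The start-site regions of 6 members were present in the RefSeq table of promoters, which uses GRCm38.p6. The 250 bases before the start site are shown for Cxcl1, Cxcl2 and Cxcl10, the CXC members whose levels fell most between the days in HIE animals, and for Ccl3, the most abundant member. Capitals mark matches on either strand to the kappa-B motif (GGGA, any 2 bases, TTCC), which NF-kB binds, to the ISRE motif (GAAA, any 2 bases, GAAA), which interferon-activated factors bind, and to the AP-1 motif TGANTCA.
Cxcl1, chr5:90890995-90891244, plus strand: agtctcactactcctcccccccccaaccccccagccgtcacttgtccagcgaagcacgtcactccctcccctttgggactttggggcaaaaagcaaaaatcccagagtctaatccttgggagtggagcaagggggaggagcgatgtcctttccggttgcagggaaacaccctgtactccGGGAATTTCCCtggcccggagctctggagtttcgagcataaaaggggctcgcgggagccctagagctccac
Cxcl2, chr5:90903649-90903898, plus strand: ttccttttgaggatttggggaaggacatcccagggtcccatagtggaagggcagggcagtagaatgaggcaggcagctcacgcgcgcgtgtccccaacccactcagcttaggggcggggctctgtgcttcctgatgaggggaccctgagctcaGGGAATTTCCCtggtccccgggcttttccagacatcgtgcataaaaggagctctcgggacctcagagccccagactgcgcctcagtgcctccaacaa
Cxcl10, chr5:92348890-92349139, minus strand: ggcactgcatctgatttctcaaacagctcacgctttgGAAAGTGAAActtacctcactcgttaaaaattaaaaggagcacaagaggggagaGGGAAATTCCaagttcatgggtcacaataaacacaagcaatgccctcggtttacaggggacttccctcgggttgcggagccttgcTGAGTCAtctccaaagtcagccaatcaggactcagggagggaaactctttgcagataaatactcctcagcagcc
Ccl3, chr11:83649379-83649628, minus strand: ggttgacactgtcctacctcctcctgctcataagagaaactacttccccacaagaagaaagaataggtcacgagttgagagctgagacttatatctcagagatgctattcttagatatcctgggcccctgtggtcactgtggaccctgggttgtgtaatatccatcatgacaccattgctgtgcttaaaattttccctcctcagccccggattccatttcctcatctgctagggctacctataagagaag
Cxcl1 and Cxcl2 hold the same run of 11 bases, from -71 to -61 of the start site in Cxcl1 and from -97 to -87 in Cxcl2, in which 2 kappa-B matches overlap. Cxcl10 holds an ISRE match from -213 to -204, a kappa-B match from -159 to -150 and an AP-1 match from -74 to -68. Ccl9 holds 1 AP-1 match from -53 to -47, and neither Ccl3 nor Ccl12 holds a match to any of the 3. Among 32851 promoters of the same length, 250 bases before to 50 after the start, 1.47% hold the kappa-B motif, 3.44% the ISRE motif and 7.81% the AP-1 motif. These matches describe letters and not binding. The promoters of Ccl2, Ccl4, Ccl7 and Cxcl16 were not analysed here.

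Total counts were 70191541 to 83469037 per library on P7 and 29751486 to 46404071 on P14. A count of 3, used as the floor of detection, was 0.0359 to 0.0427 CPM (counts scaled to library size) on P7 and 0.0646 to 0.101 CPM on P14, which covers counting error only. The labels call the cells monocytes (CD11b+). The microglia markers P2ry12 and Cx3cr1 had means of 3120 and 3360 CPM over the 20 animals, and the monocyte receptor Ccr2 did not exceed 28.0 CPM in any animal. Other genes of the monocyte list stood higher, with means of 719 CPM for Fn1 and 61.9 CPM for Ace. On P7, Fn1 averaged 2140 CPM in the control litter P6H63, 758 CPM in the control litter P6H55 and 688 CPM in HIE pups. Ace averaged 119, 85.5 and 43.9 CPM in the same order. Both were thus highest in the litter with the lowest microglia score, and their cell source was not tested. The border-associated macrophage markers Mrc1 and F13a1 had means of 1150 and 419 CPM. Of the neutrophil list, Csf3r had a mean of 152 CPM, S100a9 of 42.5 CPM and Ngp of 34.1 CPM. These did not move together on P7. Csf3r averaged 187 CPM in HIE pups and 98.2 CPM in the control litter P6H55. S100a9 averaged 20.8 and 39.0 CPM there, and Ngp 34.5 and 47.0 CPM. Which cells held the chemokine transcripts was not tested. The score of 15 microglia markers (mean log2 CPM of the list) was 9.02 to 9.72 in the P14 animals, 9.05 to 9.28 in the HIE pups and 8.72 and 8.9 in the control litter P6H55 on P7, but 6.23 and 5.57 in the control litter P6H63. That litter had instead the highest astrocyte, endothelial and neuronal scores among the P7 animals. The choroid plexus score was 5.81 to 7.03 in P6H63, 5.41 to 5.69 in P6H55 and 4.27 to 4.91 in HIE pups. In this score both control litters therefore stood above every HIE pup on P7. Cx3cr1 averaged 363 CPM in P6H63, 2870 CPM in P6H55 and 3710 CPM in HIE pups. Results of the chemokine genes that rest on P6H63 are therefore given with and without it. In bulk samples, fewer cells of a type and less RNA per cell cannot be told apart.

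Ccl3 was the most abundant member per length in each of the 5 groups. Levels per kilobase of exon are used in this paragraph, because CPM does not correct for gene length. In HIE pups on P7, the mean level was 752 CPM per kb for Ccl3, 394 for Ccl4, 260 for Ccl7, 235 for Ccl2, 76.9 for Ccl12 and 62.4 for Ccl9. It was 51.3 CPM per kb for Cxcl2, 40.7 for Cxcl1, 16.4 for Cxcl10 and 2.85 for Cxcl16. The ranges over the 4 pups were apart between Ccl3 and Ccl4, between Ccl2 and Ccl12, between Cxcl1 and Cxcl10 and between Cxcl10 and Cxcl16, whereas the other neighbours in this order overlapped. On P14, Ccl3 was still highest in HIE, control and hypoxia animals (130, 142 and 161 CPM per kb), with Ccl4 next (92.6, 96.7 and 109 CPM per kb). By the counts as divided between Cxcl10 and Art3, Cxcl10 had moved to the last place in all 3 P14 groups, with 1.36 to 1.85 CPM per kb. It stood under Cxcl16 in 12 of the 12 P14 animals, while it stood above Cxcl16 in 4 of 4 HIE pups on P7.

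**Figure D1:**
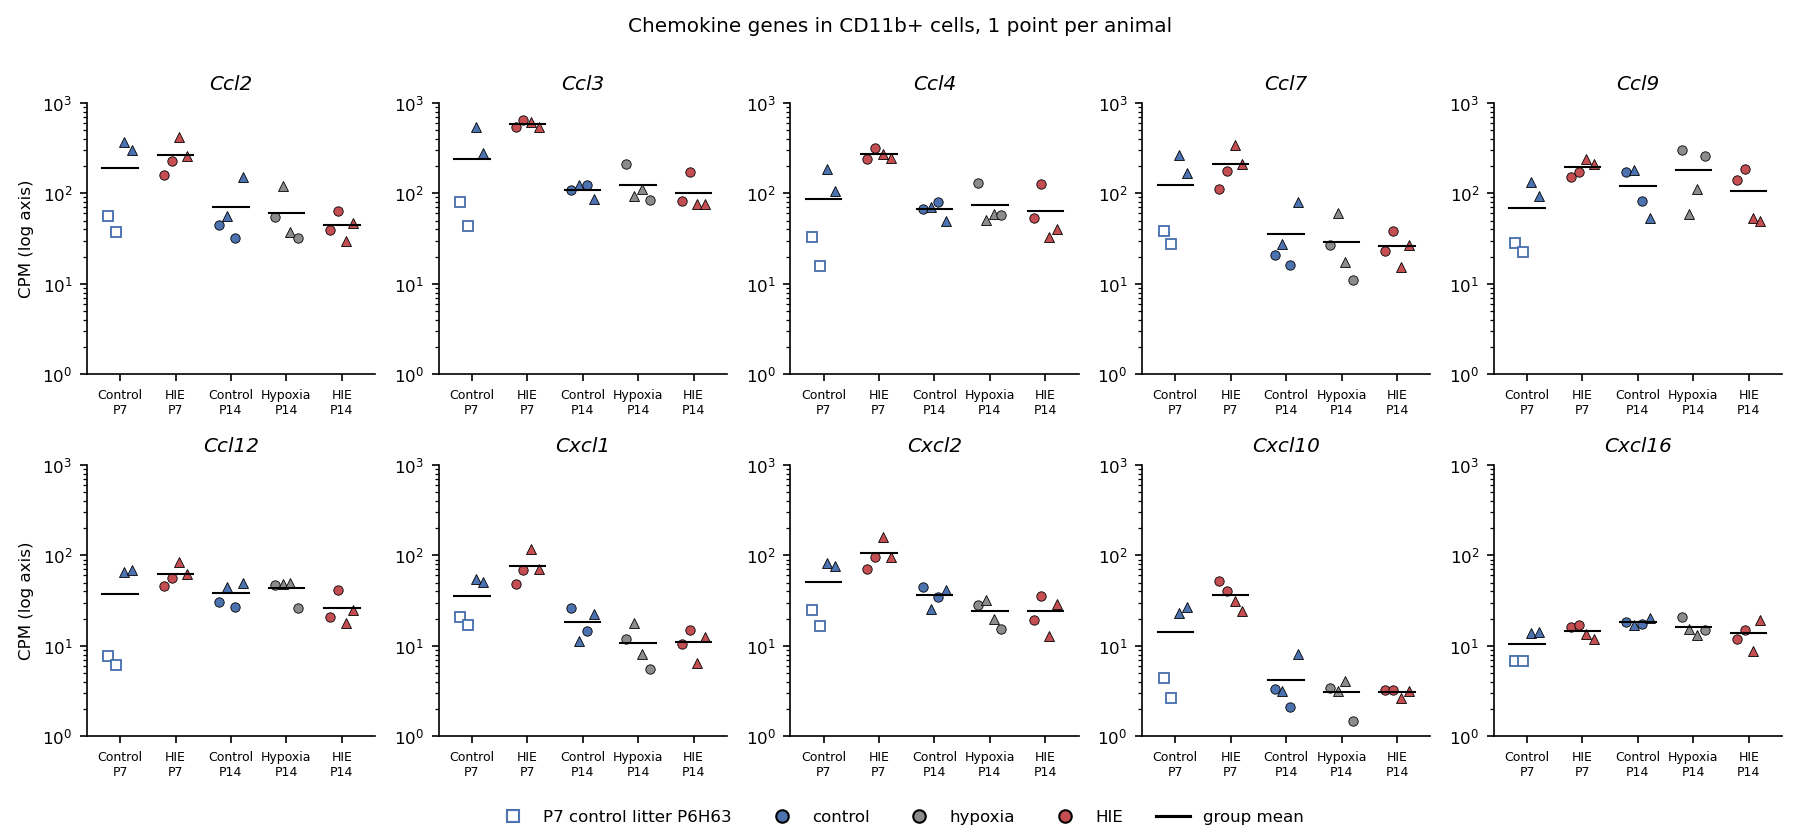
Level of each chemokine gene in CPM (log axis) in each animal of the 5 groups. Circles and triangles are the 2 litters of a group, open squares the P7 control litter P6H63, and lines the group means. The open squares lie below the other P7 points for all 10 genes, and the HIE P14 points lie below the HIE P7 points for 8 genes.

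HIE and control pups were compared on P7 to ask which chemokine genes differ soon after the second hit. All 10 members had a higher mean in HIE pups, and 0 passed the test against the 4 controls, whose litters stood far apart. In HIE pups, Ccl4 was at 241, 319, 273 and 248 CPM, while the controls had 187 and 106 CPM (P6H55) and 33.1 and 15.9 CPM (P6H63). Ccl9 was at 153, 170, 242 and 213 CPM in the HIE pups, at 134 and 93.5 CPM in P6H55 and at 27.9 and 22.3 CPM in P6H63. For these 2 members, every HIE pup stood above every control, as did 9.46% of the tested genes. The fold change was 3.13 for Ccl4 (log2 1.65, 95% confidence interval 0.079 to 3.21; edgeR quasi-likelihood test, adjusted p = 0.172) and 2.77 for Ccl9 (log2 1.47, 0.16 to 2.79; adjusted p = 0.162). Ccl2, which attracts monocytes, was at 160, 230, 421 and 258 CPM in the HIE pups, at 371 and 303 CPM in P6H55 and at 55.4 and 37.3 CPM in P6H63. The P6H55 pups lay within the range of the HIE pups, and the log2 difference over all controls was 0.46 (-1.22 to 2.15).

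Across the 10 members, the log2 fold change on P7 ranged from 0.46 for Ccl2 to 1.65 for Ccl4 with a median of 1.08, beside -0.082 over all tested genes. The quasi-likelihood test called 0 members, and so did DESeq2 (13.4% of genes called) and edgeR's exact test (5.82%), while 3 members (Ccl4, Ccl9 and Cxcl1) had an unadjusted p under 0.05. Of all 22517 genes tested, 15 (0.0666%) were called and 27.3% had an unadjusted p under 0.05. With the sex label as a covariate, 0 members had an unadjusted p under 0.05, beside 1935 of 22517 genes. Among animals labelled male only it was also 0 members, beside 3415 of 23274 genes. Without the control pup P6H55-7, Ccl3 (log2 2.12), Ccl4 (2.4) and Ccl9 (2.03) were called, along with 24.2% of all genes. The microglia score was 1.78 higher in HIE pups than in controls on the log2 scale, above the largest difference among the members. With that score subtracted from each member's log2 CPM, the differences ran from -1.22 for Cxcl16 to 0.46 for Ccl4. Ccl4 overlapped with the controls, and Cxcl16 was lower in every HIE pup, as were 47.0% of genes. With the score as a covariate of the test, Ccl2 (log2 -0.63), Ccl7 (-0.31), Ccl12 (-0.46) and Cxcl16 (-0.077) had lower estimates in HIE pups, with adjusted p-values of 0.436 to 0.854.

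Against litter P6H63 alone, all 10 members were higher in HIE pups and all 10 passed the test, in a comparison in which 27.7% of the 23780 tested genes were called higher. The CC members with the largest differences were Ccl4 (11.7-fold, log2 3.55 ± 0.3 SE, adjusted p = 5.39e-05) and Ccl3 (9.94-fold, log2 3.31 ± 0.25 SE, adjusted p = 3.07e-05). Among the CXC members it was Cxcl10 (11.1-fold, log2 3.47 ± 0.37 SE, adjusted p = 0.000158), which was at 52, 40.5, 31.1 and 24 CPM in the HIE pups and at 4.4 and 2.66 CPM in P6H63. With all counts of Art3 added, the ratio of the 2 means was 3.64 instead of 10.5. That sum can include reads from parts of Art3 outside Cxcl10, so it does not show how shared reads were divided. Cxcl16 differed least (2.26-fold). The microglia score was 3.24 higher in HIE pups than in P6H63, and all 15 markers of that list were called higher. Ccl3, Ccl4 and Cxcl10 had log2 fold changes above that score difference, and Ccl12 equalled it at log2 3.24. With the score as a covariate, the quasi-likelihood test called 0 members and 0.0% of genes, and 0 members had an unadjusted p under 0.05. The score and the treatment cannot be told apart in these 6 pups.

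Against litter P6H55 alone, whose microglia score lay 0.33 under that of the HIE pups, 0 members passed the quasi-likelihood test, as did 0.112% of 23274 genes. Ccl4 and Ccl9 had the 2 largest fold changes and were again above both controls in every HIE pup, as were 14.7% of genes. Ccl4 was 1.82-fold higher (log2 0.86 ± 0.22 SE, adjusted p = 0.204) and Ccl9 1.68-fold higher (log2 0.75 ± 0.22 SE, adjusted p = 0.219). DESeq2 called both (adjusted p = 0.00263 and 0.0109), along with 4.2% of all genes, and edgeR's exact test called Ccl4 alone (adjusted p = 0.0262), with 1.87% of genes. With the microglia score as a covariate, Ccl4 stood at log2 0.18 and Ccl9 at 0.93 (quasi-likelihood test, adjusted p = 0.998 for both). In that fit 0 members had an unadjusted p under 0.05, beside 988 of 23274 genes. The score was higher in every HIE pup than in both controls. The members of the Ccl2 cluster overlapped between the groups, with log2 differences of -0.35 for Ccl2, -0.062 for Ccl7 and -0.14 for Ccl12. The 95% interval for Ccl12 was 0.64 to 1.28 in fold. Cxcl1, Cxcl2 and Cxcl10 had log2 differences of 0.52, 0.4 and 0.53, all with intervals that include 0, and Cxcl16 had 0.048 (-0.3 to 0.39). Without the control pup P6H55-7, the test called Ccl3 (log2 1.06, adjusted p = 0.0103) and Ccl4 (1.35, adjusted p = 0.0108) among 10.5% of all genes, and the 1 control left was then assumed to vary like the HIE pups.

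**Figure D2:**
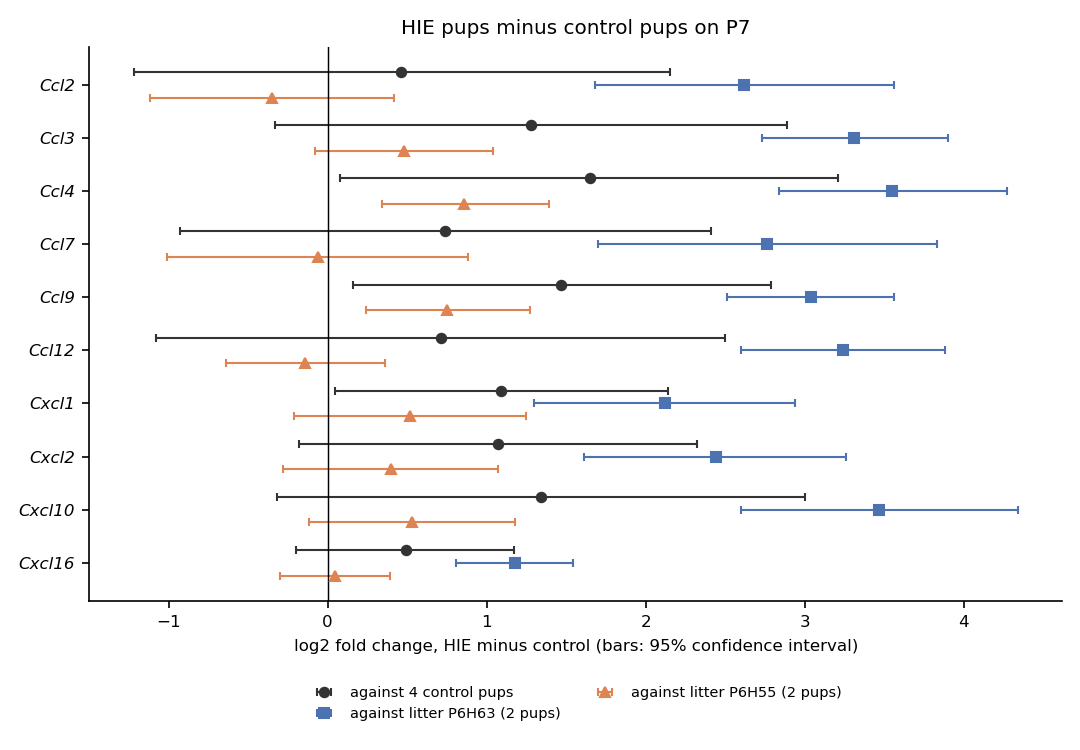
Log2 fold change of each chemokine gene, HIE pups minus control pups on P7, against all 4 controls, against litter P6H63 and against litter P6H55, with 95% confidence intervals. The squares of P6H63 lie from 1.18 to 3.55, and the triangles of P6H55 lie from -0.35 to 0.86.

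A list of 24 inducers and NF-kB feedback genes was read beside the chemokines. On P7 it also differed by control litter, with 21 of 23 tested genes higher and 1 lower in HIE pups against P6H63, beside 27.7% of all genes higher and 30.8% lower. Examples were Il1b (log2 3.12 ± 0.17 SE), which encodes interleukin-1 beta, Tlr2 (3.03 ± 0.15 SE) and Tnfaip3 (3.02 ± 0.28 SE), which encodes the NF-kB inhibitor A20. Against P6H55 the quasi-likelihood test called 0 of 22, while 13 had an unadjusted p under 0.05 (16.5% of all genes), DESeq2 called 8 (4.2% of all genes) and the exact test 6 (1.87% of all genes). The gene with the highest CPM of the list was Tnfaip3 (773 against 507 CPM, log2 0.59 ± 0.1 SE, adjusted p = 0.128), and Nfkbiz was next (760 against 536 CPM, log2 0.48 ± 0.12 SE, adjusted p = 0.191). The 15 microglia markers also differed against P6H55, where 9 had an unadjusted p under 0.05 and DESeq2 called 6. Neither the quasi-likelihood test nor the exact test called any of these markers. The part of the cell content in the counts of both lists was not tested.

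The same 10 genes were compared among the 3 groups on P14 to ask whether a difference was present later. All 10 members had a lower mean in HIE animals than in controls, by log2 differences of -0.1 for Ccl4 to -0.77 for Cxcl1, with a median of -0.48 beside 0.011 over all genes. The direction turned for Ccl7 and Cxcl10 without the control P6H8-7M, for Ccl4 without either animal of the HIE litter P6H12, and for Ccl9 without P6H12-11M or without the control P6H8-8F. The quasi-likelihood test called 0 of the 10 at the adjusted threshold, as did DESeq2 (2.34% of genes) and the exact test (1.13%), and it called 0.00478% of 20935 genes. Cxcl1 and Cxcl2 had unadjusted p-values under 0.05, as had 9.87% of all genes. Cxcl1 was at 10.4, 14.9, 6.47 and 12.6 CPM in HIE animals and at 25.9, 11.2, 14.5 and 22.4 CPM in controls (0.588-fold, 95% interval 0.371 to 0.932, adjusted p = 0.416, quasi-likelihood test). Cxcl2 was at 19.3, 35.2, 13 and 28.7 CPM in HIE animals and at 45.1, 25.3, 34.9 and 41.6 CPM in controls (0.642-fold, 0.414 to 0.996, adjusted p = 0.503). The groups overlapped for both genes.

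In the hypoxia animals, Cxcl2 was at 28.6, 32.5, 20 and 15.4 CPM (0.64-fold of the controls, 0.435 to 0.944, adjusted p = 0.5), and Cxcl1 at 11.8, 17.9, 8.19 and 5.49 CPM (0.571-fold, 0.321 to 1.01, adjusted p = 0.53). Both comparisons use the same 4 controls. Between HIE and hypoxia animals the log2 difference was 0.024 (-0.75 to 0.8) for Cxcl1 and -0.016 (-0.7 to 0.66) for Cxcl2. In hypoxia against control, 1 member (Cxcl2) had an unadjusted p under 0.05 and 0 were called by the quasi-likelihood test, by DESeq2 or by the exact test, which called 0.00955%, 0.783% and 0.296% of genes. In HIE against hypoxia, Ccl12 was at 21.1, 41.7, 17.7 and 25 CPM in HIE and at 47.6, 48.3, 50 and 26.4 CPM in hypoxia animals (log2 -0.72 ± 0.27 SE, adjusted p = 0.999). It was the only member with an unadjusted p under 0.05 in that comparison, and 0 were called by any of the 3 tools. The shares of genes called there were 0.00955%, 0.0716% and 0.0811%.

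Within the control and hypoxia groups on P14, Ccl3 and Ccl4 were highest in other animals than Ccl2 and Ccl7, while in the HIE group P4H1-6F was highest for all 4 genes and for Ccl12, Cxcl1 and Cxcl2. Ccl3 and Ccl4 were highest in P4H1-6F of the HIE group (171 and 128 CPM, next 81.3 and 53.5) and in P6H7-16M of the hypoxia group (209 and 131 CPM, next 112 and 59.3). These animals also had the highest immediate early gene score of their groups, 8.51 beside 7.68 to 8.08 and 8.74 beside 8.08 to 8.19, a list that tissue dissociation can induce. Ccl2 and Ccl7 were instead highest in P6H8-7M of the controls (151 and 79.2 CPM, next 56 and 27.4) and in P6H9-14M of the hypoxia group (120 and 61.3 CPM, next 55.3 and 26.9). In neither of these animals was Ccl3 above the median of its group. P6H8-7M had the highest immediate early gene score of the controls, 8.48. The part of the immediate early genes in these levels was not tested.

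Ccl9 differed between the litters of a group in HIE and in hypoxia animals. It was at 303 and 256 CPM in the hypoxia litter P6H7 but at 58.5 and 111 CPM in the hypoxia litter P6H9. In HIE animals it was at 141 and 185 CPM in P4H1 and at 49.3 and 53.9 CPM in P6H12. Among controls the spread lay within the litters instead, at 82.3 and 173 CPM in P4H4 and at 53.1 and 179 CPM in P6H8. Its coefficient of variation was 62.2% in HIE, 52.2% in control and 63.8% in hypoxia animals, whereas it was 20.9% in the HIE pups and 77.6% in the controls on P7. The microglia scores of these litters were 9.64 and 9.52 (P6H7), 9.3 and 9.02 (P6H9), 9.56 and 9.72 (P4H1) and 9.43 and 9.15 (P6H12), so both litters with high Ccl9 had the higher scores of their group as well. The part of the cell content in these levels was not tested.

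Each of the 6 litters on P14 held 1 animal labelled male and 1 labelled female. Ccl2, Ccl7, Cxcl1, Cxcl2 and Cxcl16 were higher in the male in 5 of 6 litters, and 9.74% of genes were higher in the male in at least 5 of 6. Cxcl1 had the largest difference over its error (1.69-fold, log2 0.76 ± 0.2 SE, adjusted p = 1.0, quasi-likelihood test with litter as a block). Ccl7 was 1.82-fold and Ccl2 1.66-fold higher in males (adjusted p = 1.0 for both). None passed the adjusted threshold, at which 0.0393% of the 22887 genes were called, and this comparison was chosen after the values had been seen. For these 5 genes the exception was litter P4H1, where the female was higher. Ccl3, Ccl4 and Ccl9 were higher in the male in 2 of 6 litters.

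**Figure D3:**
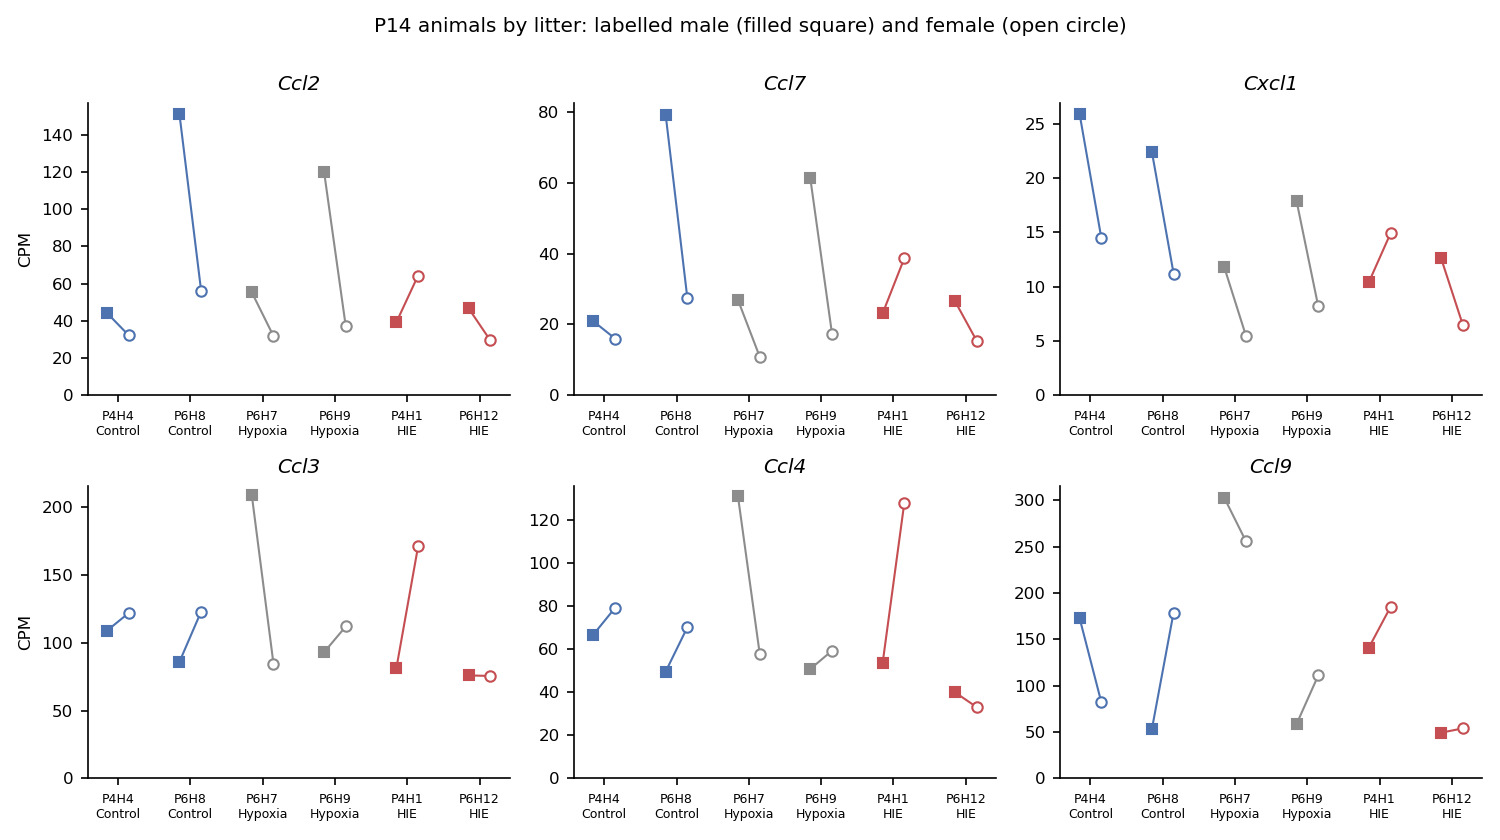
CPM of 6 chemokine genes in the 12 animals on P14, with lines joining the animal labelled male (filled square) and female (open circle) of a litter, coloured by treatment. The males stand higher in 5 of 6 litters for Ccl2, Ccl7 and Cxcl1, and litter P6H7 stands highest for Ccl9.

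From P7 to P14, 8 of the 10 members fell in HIE animals, in a comparison in which 23.2% of 22577 tested genes were called lower. By the deposited counts Cxcl10 fell most, from 52, 40.5, 31.1 and 24 CPM to 3.21, 3.24, 2.62 and 3.14 CPM (11.9-fold lower, log2 -3.57 ± 0.23 SE, adjusted p = 2.21e-06, edgeR quasi-likelihood test). With the counts of the overlapping gene Art3 added, it ran from 27.9 to 57.0 CPM on P7 and 7.44 to 9.65 on P14. The ratio of means was then 4.69 instead of 12.1. Art3 alone averaged 4.34 CPM on P7 and 5.73 CPM on P14, which lowers the ratio whether or not reads were shared. The place of Cxcl10 among the falls may depend on how shared reads were divided, which was not tested. The Ccr2 ligands Ccl7 and Ccl2 fell 7.97-fold (log2 -2.99 ± 0.36 SE, adjusted p = 0.000115) and 5.86-fold (log2 -2.55 ± 0.31 SE, adjusted p = 0.000115). Ccl12, their neighbour on the chromosome, fell 2.3-fold (log2 -1.2 ± 0.26 SE, adjusted p = 0.00382). Cxcl1 fell 6.76-fold, Ccl3 5.7-fold, Cxcl2 4.33-fold and Ccl4 4.2-fold, with adjusted p-values from 4.31e-05 to 0.00122. For all 8, each P14 animal stood below each P7 animal, as it did for 24.1% of genes.

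Ccl9 and Cxcl16 did not pass the test in HIE animals. Ccl9 was at 153 to 242 CPM on P7 and at 49.3 to 185 CPM on P14 (log2 -0.84, 95% interval -1.69 to -0.0022, adjusted p = 0.0925), and without P4H1-6F it was called (log2 -1.24, adjusted p = 0.0169). Cxcl16 was at 11.9 to 16.8 CPM on P7 and at 8.75 to 19.5 CPM on P14 (0.958-fold, 95% interval 0.684 to 1.34). The immediate early gene score fell by 1.13 between the same groups, and 19 of its 21 genes were called lower and 2 higher, beside 23.2% and 22.8% of all genes. With that score as a covariate, a choice made after the values had been seen, 1 member was called, Cxcl10, along with 3.49% of genes, and Ccl12 stood at log2 0.46. Day, table and the immediate early genes cannot be told apart here. The HIE pups on P7 are all labelled male and the HIE animals on P14 are of both sexes, so sex was not balanced between the days either.

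In control animals, the P7 to P14 difference depended on which P7 litter was included. With all 4 controls of P7, Cxcl16 was the only member called, and it was higher on P14 (18.2 ± 1.36 against 10.4 ± 4.11 CPM, SD, n = 4; log2 0.89 ± 0.29 SE, adjusted p = 0.0449), beside 15.6% of 22320 genes called higher. Every P14 control stood above every P7 control for Cxcl16, as for 16.3% of genes. That call was lost with 6 of the 8 animals left out in turn, and the highest adjusted p of these was 0.117, without P6H8-7M. DESeq2 called Cxcl16 higher and Cxcl10 lower (adjusted p = 0.0207 and 0.0463), with 42.8% of genes. Without litter P6H63, 8 members were called lower, beside 16.2% of genes, and Cxcl16 was called higher (log2 0.44, adjusted p = 0.0389), beside 15.0% of genes. The log2 differences were then -2.55 for Cxcl10 and for Ccl7, -2.2 for Ccl2, -1.86 for Ccl3, -1.46 for Cxcl1, -1.1 for Ccl4, -1.07 for Cxcl2 and -0.78 for Ccl12. Ccl12 had stood at 0.093 with all 4 controls. Leaving out P6H63 was chosen after the values had been seen and leaves 2 P7 controls, both of 1 litter. With all 4 controls and the microglia score as a covariate, the same 8 members were called lower, beside 17.2% of genes.

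The microglia score rose by 1.89 from P7 to P14 in controls with all 4 pups, and the immediate early gene score differed by -0.08. Without P6H63, 15 of the 21 immediate early genes were called lower on P14 and 2 higher, beside 16.2% and 15.0% of all genes. With the microglia score subtracted from each log2 CPM, the P14 controls stood below all P7 controls for 8 members, all but Ccl9 and Cxcl16, beside 49.7% of genes. In HIE animals the same subtraction left P14 below P7 for 9 members, all but Cxcl16, beside 36.0% of genes. In controls these differences of means were largest for Ccl7 (-3.4) and Cxcl10 (-3.23) and smallest for Ccl9 (-0.87).

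**Figure D4:**
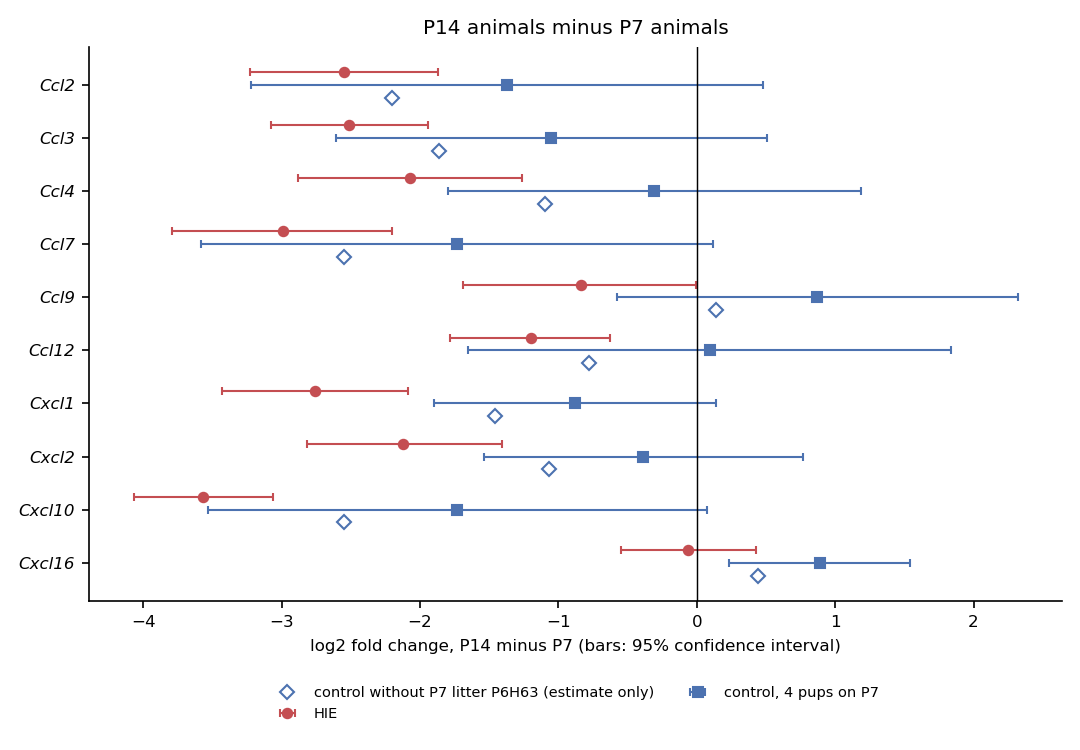
Log2 fold change of each chemokine gene from P7 to P14 in HIE animals (circles) and in controls (squares) with 95% confidence intervals, and in controls without the P7 litter P6H63 (diamonds, estimate only). In HIE animals the values run from -3.57 for Cxcl10 to -0.061 for Cxcl16, and the diamonds of 8 genes lie below 0.

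Whether the HIE difference changed between the days was tested as an interaction. All 10 members had a negative interaction, from -0.91 for Cxcl16 to -1.85 for Cxcl1 on the log2 scale, with a median of -1.54 beside 0.043 over all genes. The quasi-likelihood test called 0 members and 0.00405% of 24694 genes. Cxcl1 (-1.85 ± 0.58 SE, adjusted p = 0.181), Cxcl2 (-1.69 ± 0.65 SE, adjusted p = 0.269) and Cxcl16 (-0.91 ± 0.39 SE, adjusted p = 0.318) had an unadjusted p under 0.05, as had 13.9% of genes. DESeq2 called Cxcl1 alone (adjusted p = 0.0481) and 2.73% of genes. Without the P7 litter P6H63, the quasi-likelihood test called 0 members and 0.0% of genes, and 2 members had an unadjusted p under 0.05, beside 2245 of 25848 genes. The 10 interactions then ran from -0.33 for Ccl2 to -1.28 for Cxcl1. Without the control pup P6H55-7, Cxcl1 was called (-2.15, adjusted p = 0.0499), beside 4.73% of genes.

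Ratios of neighbouring genes within an animal do not depend on library size and were compared to ask whether cluster members moved together. Of the 4 ratios, 2 separated the days completely. Ccl12 over Ccl2 was 0.14 to 0.282 in the 8 animals on P7 and 0.33 to 1.35 in the 12 animals on P14. Cxcl2 over Cxcl1 was 0.995 to 1.53 on P7 and 1.74 to 2.8 on P14. Each P14 animal therefore held more Ccl12 transcript per Ccl2 transcript, and more Cxcl2 per Cxcl1, than any P7 animal, the P6H63 controls included. The exact permutation test of 4 against 4 gave p = 0.0286 for both ratios in controls and in HIE animals, which is the smallest it allows, and adjusted p = 0.0763 over 24 tests. Ccl7 over Ccl2 went the other way (0.554 to 0.821 on P7, 0.342 to 0.601 on P14), with the same exact p in both groups.

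Ccl4 over Ccl3 was the ratio that separated HIE from control pups on P7. HIE pups had 0.449, 0.494, 0.449 and 0.458, whereas controls had 0.41 and 0.362 (P6H63) and 0.343 and 0.38 (P6H55; exact permutation test, p = 0.0286, adjusted p = 0.0763 over 24 tests). The 2 control litters, which were far apart in both genes, were close in this ratio. With the reads of Gm53692 added to Ccl3, the ratio was 0.437 to 0.483 in HIE pups and 0.334 to 0.389 in controls. On P14 it was 0.438 to 0.749 in HIE, 0.57 to 0.65 in control and 0.527 to 0.685 in hypoxia animals, with overlap between all 3 (p = 0.771 for HIE against control by the exact permutation test). Ccl7 over Ccl2 was higher in every HIE animal on P14 (0.522 to 0.601) than in every hypoxia animal (0.342 to 0.511, exact permutation adjusted p = 0.0763). These ratios were set with earlier results of the data known, and none passed an adjusted p of 0.05.

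**Figure D5:**
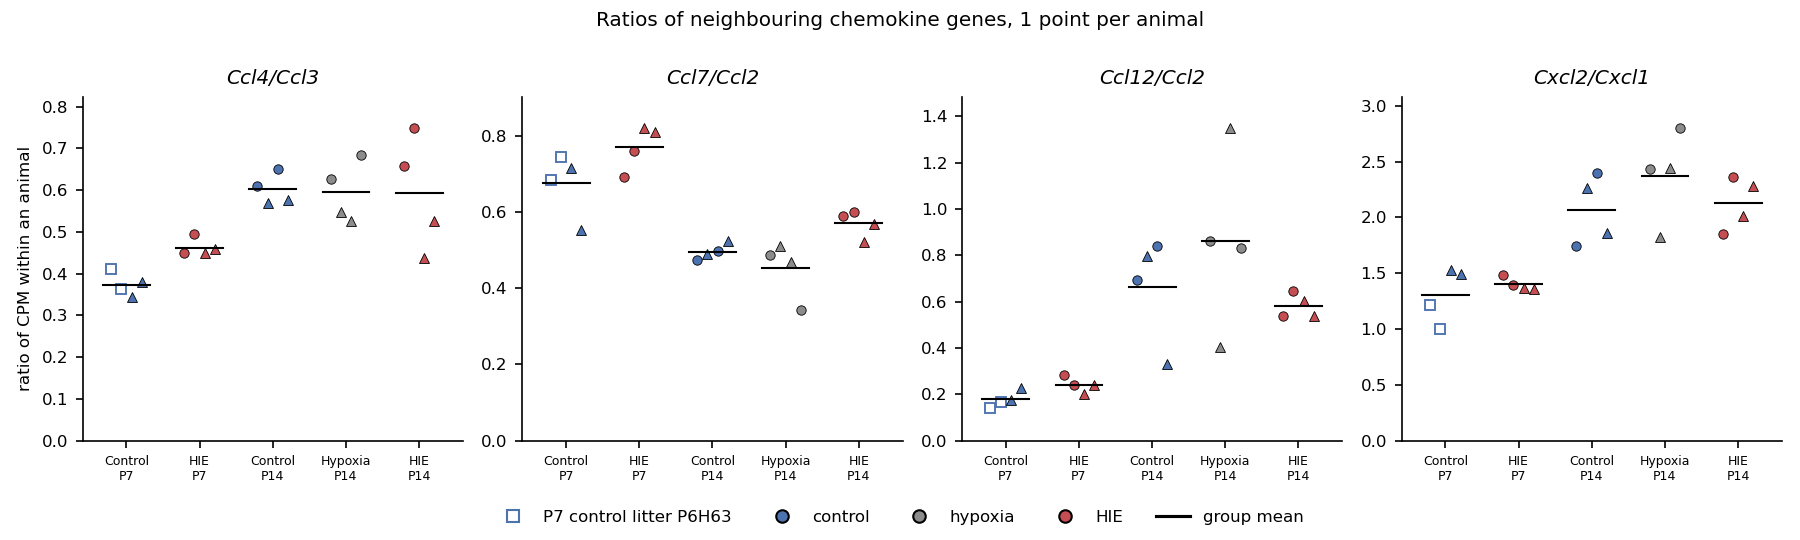
Ratio of the CPM of 2 neighbouring chemokine genes within each animal, by group, with lines at group means, circles and triangles for the 2 litters of a group and open squares for the P7 control litter P6H63. For Ccl12 over Ccl2 and for Cxcl2 over Cxcl1 all P14 points lie above all P7 points.

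The receptors of these chemokines were measured in the same cells. Of 23 chemokine receptor genes, 20 were tested, and Ccr4, Ccr8 and Cxcr1 did not exceed 0.0935 CPM in any animal. Ccr1, the receptor of Ccl3 and Ccl9, was at 165 ± 48.4 CPM on P7 and 115 ± 40.4 CPM on P14 in HIE animals (SD, n = 4; log2 -0.51 ± 0.24 SE, adjusted p = 0.11). Cxcr6, the receptor of Cxcl16, rose from 0.93 ± 0.148 to 3.34 ± 0.466 CPM in HIE animals (log2 1.87 ± 0.21 SE, adjusted p = 7.71e-05). It also rose in controls (0.976 ± 0.194 to 2.75 ± 0.969 CPM, log2 1.58 ± 0.31 SE, adjusted p = 0.00791). Ccr2, Cxcr2 and Cxcr3, on which the Ccl2 cluster, Cxcl1 and Cxcl2, and Cxcl10 act, lay between 1.77 and 28.0 CPM in the animals outside litter P6H63. In all, 8 receptors rose and 5 fell in HIE animals, beside 22.8% and 23.2% of all genes. In controls 3 rose and 2 fell, beside 15.6% and 17.4%, and without P6H63 5 rose and 3 fell, beside 15.0% and 16.2%. Against P6H63 on P7, 10 were higher and 7 lower in HIE pups, beside 27.7% and 30.8% of all genes. Against P6H55 the quasi-likelihood test called 0, 5 had an unadjusted p under 0.05, DESeq2 called 3 and the exact test 1, beside 16.5%, 4.2% and 1.87% of all genes for the last 3 counts. Against all P7 controls the quasi-likelihood test called 0, 6 had an unadjusted p under 0.05 (27.3% of all genes) and DESeq2 called 3 (13.4%). Among the P14 groups the quasi-likelihood test called 0, 2 to 4 had an unadjusted p under 0.05 (4.52 to 9.87% of all genes) and DESeq2 called 0 to 1 (0.0716 to 2.34%).

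Other chemokine genes of the family were taken as a list of 27, of which 13 to 19 passed the filter in a comparison. In HIE animals from P7 to P14, 3 rose and 4 fell, beside 22.8% and 23.2% of all genes, with a median log2 difference of 0.27 over those tested. Those that fell included Ccl6 (155 to 73.5 CPM, log2 -1.06 ± 0.37 SE, adjusted p = 0.0379), Ccl24 (130 to 45.6 CPM, log2 -1.49 ± 0.3 SE, adjusted p = 0.00269) and Pf4 (123 to 45.9 CPM, log2 -1.4 ± 0.26 SE, adjusted p = 0.00159), a marker of border-associated macrophages. In controls, 1 rose and 1 fell, beside 15.6% and 17.4% of all genes. Ccl17 rose (log2 3.45 ± 0.58 SE) from a mean of 0.0717 CPM, near the level of 3 counts, and Ppbp fell (log2 -1.55 ± 0.47 SE). Without P6H63, 2 rose and 3 fell in controls, Ccl17 (log2 3.18) and Ppbp (-1.99) among them, beside 15.0% and 16.2% of all genes. Against P6H63 on P7, 6 were higher and 6 lower, beside 27.7% and 30.8% of all genes. The higher ones included Ccl6 (log2 3.97 ± 0.38 SE), a macrophage chemokine, and the lower ones Cxcl12 (log2 -1.24 ± 0.14 SE), which stromal and endothelial cells make, and Cx3cl1 (log2 -1.4 ± 0.13 SE), which neurons make. Against P6H55 the quasi-likelihood test, DESeq2 and the exact test each called 0, beside 0.112%, 4.2% and 1.87% of all genes. An unadjusted p under 0.05 was found for 2, beside 16.5% of all genes.

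The list of inducers and NF-kB feedback genes was also lower on P14 in HIE animals, where 18 of 22 tested genes fell and 1 rose, beside 23.2% and 22.8% of all genes. Nfkbiz, which encodes a nuclear IkB protein, fell from 760 ± 87.5 to 141 ± 30.4 CPM (SD, n = 4; log2 -2.41 ± 0.16 SE, adjusted p = 3.19e-06). Tnfaip3 fell from 773 to 262 CPM (log2 -1.54 ± 0.17 SE), Nfkbia from 420 to 171 CPM (log2 -1.28 ± 0.16 SE) and Tlr2 from 189 to 75.4 CPM (log2 -1.3 ± 0.11 SE). The median log2 difference of the list was -0.8 in HIE animals and 0.083 in controls, beside 0.02 and -0.021 over all genes. In controls 0 of 22 fell with all 4 pups of P7, beside 17.4% of all genes. Without P6H63 the median was -0.36 and 7 of 22 fell, beside 16.2% of all genes. Nfkbiz (log2 -1.31, adjusted p = 0.00465) and Tnfaip3 (log2 -0.81, adjusted p = 0.0201, quasi-likelihood test) were among the 7, and had been at -0.56 and -0.06 with all 4 pups.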

How the data were processed

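Expected counts per gene, estimated with RSEM after alignment with STAR to GRCm39, were deposited by the authors in 1 table for P7 and 1 for P14. The submitters' processing notes also name FastQC. The counts were not normalized, and 84.2 to 88.0% of values per library were whole. They were summed over the 2 libraries of an animal where it had 2, rounded to whole numbers and tested in edgeR 4.0.16 (R 4.3.3) with filterByExpr, TMM factors and the quasi-likelihood test. P-values were adjusted by Benjamini-Hochberg over all genes tested, and an adjusted p under 0.05 was a call. Levels are CPM with TMM factors over 20 animals, and scores are means of log2 CPM with a prior count of 2. DESeq2 1.42.0 and the edgeR exact test were alternatives, with other normalizations, no filter, covariates and each animal left out. Ratios were compared by exact two-sided permutation tests in SciPy 1.17.1. The fits were tested on simulated data. Replicates are separate animals, but litter mates share a dam, which the tests do not model.

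The 10 members and all lists were chosen with earlier results of these data known. All 10 members were reported. In the lists, the genes named were the 3 with the highest mean CPM and up to 3 called genes per comparison with the smallest adjusted p, and others named beside a count were chosen after their values were seen. Totals of 29751486 to 83469037 counts per library set the precision, and floors cover counting error only. Results for some genes of the lists are not reported here.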

Additional observations from a re-analysis of the deposited data

Results flagged for a closer look

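Of 50 sets of 4 animals (10 genes in 5 groups), 4 held an animal that stood far from the others of its group, and chance alone marks about 1 in 20 such sets. Ccl3 in the HIE animals on P14 was at 171.0 CPM in P4H1-6F, and the next animal was at 81.3 CPM. Ccl4 in the hypoxia animals was at 131.0 CPM in P6H7-16M, and the next was at 59.3 CPM. Ccl12 in the hypoxia animals was at 26.4 CPM in P6H7-8F, and the next was at 47.6 CPM. Cxcl10 in the HIE animals on P14 was at 2.62 CPM in P6H12-14F, with the next at 3.14 CPM.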

How the results depend on the processing

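Of the fold changes of single members under the alternatives, 1368 kept their direction and their side of the threshold, 27 passed it only under the alternative, 23 passed it only in the chosen analysis and 82 turned direction. Of those 82, 6 were called in either analysis and 76 in neither. With the microglia score as a covariate, HIE pups against litter P6H63 had 0 members called, and Ccl3 (-0.39), Ccl4 (-1.1) and Cxcl10 (-0.72) turned on the log2 scale. Against all P7 controls, Ccl2 (-0.63), Ccl7 (-0.31), Ccl12 (-0.46) and Cxcl16 (-0.077) turned with that covariate. Against P6H55 it turned Ccl2 (0.14), Ccl3 (-0.16), Ccl7 (0.34), Ccl12 (0.37), Cxcl10 (-0.028) and Cxcl16 (-0.36). In hypoxia against control it turned Ccl2 (0.17), Ccl3 (-0.0021), Ccl4 (-0.085) and Ccl7 (0.13), and in HIE against hypoxia Cxcl1 (-0.095) and Cxcl10 (0.046). Against litter P6H55, DESeq2 called 2 members and the exact test 1, and scaling by library size alone put Cxcl16 at -0.011. In controls from P7 to P14, where 1 member was called, DESeq2 called 2, RLE factors, no filter and the sex label as a covariate each gave 0, the microglia score as a covariate gave 8 and leaving out litter P6H63 gave 9. Ccl12 turned there to -1.17 with the microglia score and to -0.78 without that litter, and Ccl9 to -0.21 with the score. With the immediate early gene score as a covariate, HIE animals from P7 to P14 kept 1 call, and Ccl9 (0.57), Ccl12 (0.46) and Cxcl16 (0.78) turned. That covariate also turned Ccl2 (-0.72), Ccl7 (-0.42), Ccl12 (-0.5) and Cxcl16 (-0.033) in HIE against all P7 controls. For the interaction, DESeq2 called 1. The cause of these changes was not tested.

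In HIE against hypoxia on P14, Cxcl10 (-0.0071) turned with DESeq2 (0.00098), all 12 animals in 1 fit (0.013), first libraries only (0.0046) and no filter (0.0089). Cxcl2 (-0.016) turned with all 12 animals (0.0061), no filter (0.0025) and the sex label (0.035), Cxcl1 (0.024) with library size alone (-0.023) and the prefix P6H alone (-0.17), and Ccl7 with the sex label (0.037). In hypoxia against control, Ccl12 turned with the prefix P6H alone (-0.18).

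Leaving out each animal in turn gave 0 to 3 members for HIE against control on P7, 0 to 2 against litter P6H55, 0 to 1 for controls from P7 to P14 and 0 to 1 for the interaction. Some signs then depended on the animal left out. Against P6H55 these were those of Ccl7 (-0.42 to 0.33) and Cxcl16 (-0.024 to 0.13). In HIE against control on P14 they were Ccl4 (-0.67 to 0.11), Ccl7 (-0.75 to 0.25), Ccl9 (-0.6 to 0.026) and Cxcl10 (-0.69 to 0.072). In hypoxia against control they were Ccl2 (-0.82 to 0.44), Ccl3 (-0.22 to 0.29), Ccl4 (-0.28 to 0.28), Ccl7 (-1.01 to 0.41) and Cxcl10 (-0.71 to 0.065). In HIE against hypoxia they were Ccl2 (-0.66 to 0.1), Ccl3 (-0.69 to 0.05), Ccl4 (-0.83 to 0.17), Ccl7 (-0.45 to 0.48), Cxcl1 (-0.19 to 0.37), Cxcl2 (-0.24 to 0.18) and Cxcl10 (-0.23 to 0.17). From P7 to P14 they were Ccl4 (-0.68 to 0.42) and Ccl12 (-0.29 to 0.58) in controls and Cxcl16 (-0.29 to 0.11) in HIE animals. No paired analysis was possible because, for the treatment and day comparisons, replicate numbers were given in accession order and litters lie within 1 treatment and day. Litter was a block in the comparison of males and females within litters. The exact test was not run for the interaction. Depth did not limit the members, which had at least 53 counts in each animal.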
